A study of Mus musculus with 4 samples.

Results

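The Kelch-like (Klhl) genes encode adaptors that pick the targets of an E3 ubiquitin ligase. They were taken as every row of the deposited count table whose symbol is Klhl followed by a number and that held at least 1 count. Of the 51826 rows, 36 carried such a symbol and 34 of these had counts, while Klhl1 and Klhl14 were at 0 in all libraries. At the edge of the rule stood Klhl35, whose counts per library were 3 and 1 (WT) and 1 and 0 (Mef2dα2 Eko). Klhl35 was too low for the comparison between genotypes, so 33 of the 34 members were tested, and 16120 of the 24621 rows with any count were tested in all.

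The RNA came from quadriceps of sedentary male C57BL6/J mice of about 20 weeks, 2 WT mice and 2 Mef2dα2 Eko (Eko) mice, with 1 polyA-selected library per mouse. Mef2dα2 Eko mice are homozygous for a CRISPR-Cas9 deletion of the α2 exon of Mef2d, which encodes a transcription factor of the MEF2 family, and this exon is an alternative to the α1 exon. The deletion is in the germline and so is not limited to muscle. WT controls were littermates from crosses of heterozygotes, and the founder line of the sequenced mice was not given in the sources used here. The comparison of the genotypes asks how gene expression in muscle differs when the α2 exon is missing.

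A Klhl protein carries a BTB domain that binds the scaffold Cullin-3, a BACK domain and a propeller of kelch repeats that holds the protein to be ubiquitinated. Several members are known for skeletal muscle. Klhl40 and Klhl41 hold the thin filament proteins nebulin and leiomodin-3 stable, mutations of either gene in people cause nemaline myopathy, and Klhl31 is required for normal sarcomeres in mice.

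Total expected counts were between 72626757 and 85176059 per library, and the totals of the genotypes overlapped. A level of 3 counts, taken as the smallest a library can show, came to 0.0348 to 0.0419 CPM, a floor for counting error alone. CPM here are TMM-scaled, so that they can be set side by side between libraries. Mef2d itself was at 259 and 227 CPM in WT muscles against 252 and 241 CPM in Eko muscles, and counts per gene do not separate its α exons, so they do not check the deletion. The study calls the sequenced WT and Eko mice littermates, but its sources do not pair them by replicate number. Markers of myofibres were abundant, with summed levels of 133563 and 137651 CPM in WT muscles against 135443 and 142219 CPM in Eko muscles.

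Klhl41 was the most abundant member per length of exon. Its level was 186 and 188 CPM per kb of exons in WT muscles against 194 and 212 CPM per kb in Eko muscles. Klhl31 followed at 81.0 and 71.8 CPM per kb in WT muscles against 84.9 and 77.6 CPM per kb in Eko muscles. Per kb, Klhl31 was thus at 36.7% to 43.7% of the level of Klhl41 in the same mouse, and Klhl40 was at 16.0% to 16.3%. After these came Klhl21, Klhl40, Klhl30 and Klhl9, with means over the 4 mice of 43.5, 31.6, 20.6 and 15.9 CPM per kb. Each of these 6 members lay above the next in every mouse, so their order was not within the spread between mice.

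Klhl9 and the next member, Klhl24, at a mean of 14.7 CPM per kb, overlapped between mice, as did Klhl38, Klhl7 and Klhl8 at 10.3, 9.32 and 8.41 CPM per kb. With the longest transcript as the length, Klhl24 stood at 18.4 CPM per kb and took the place of Klhl9, so 5 of the 6 highest members were shared between the lengths. The 6 highest members made up 83.1% to 84.0% of the summed level per kb of the family in each mouse, and Klhl41 alone 40.8% to 44.1%. At the other end, Klhl10, Klhl3 and Klhl32 had mean levels of 0.0611, 0.0370 and 0.0179 CPM per kb. The whole family summed to 456 and 447 CPM per kb in WT muscles against 465 and 480.0 CPM per kb in Eko muscles.

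**Figure D1:**
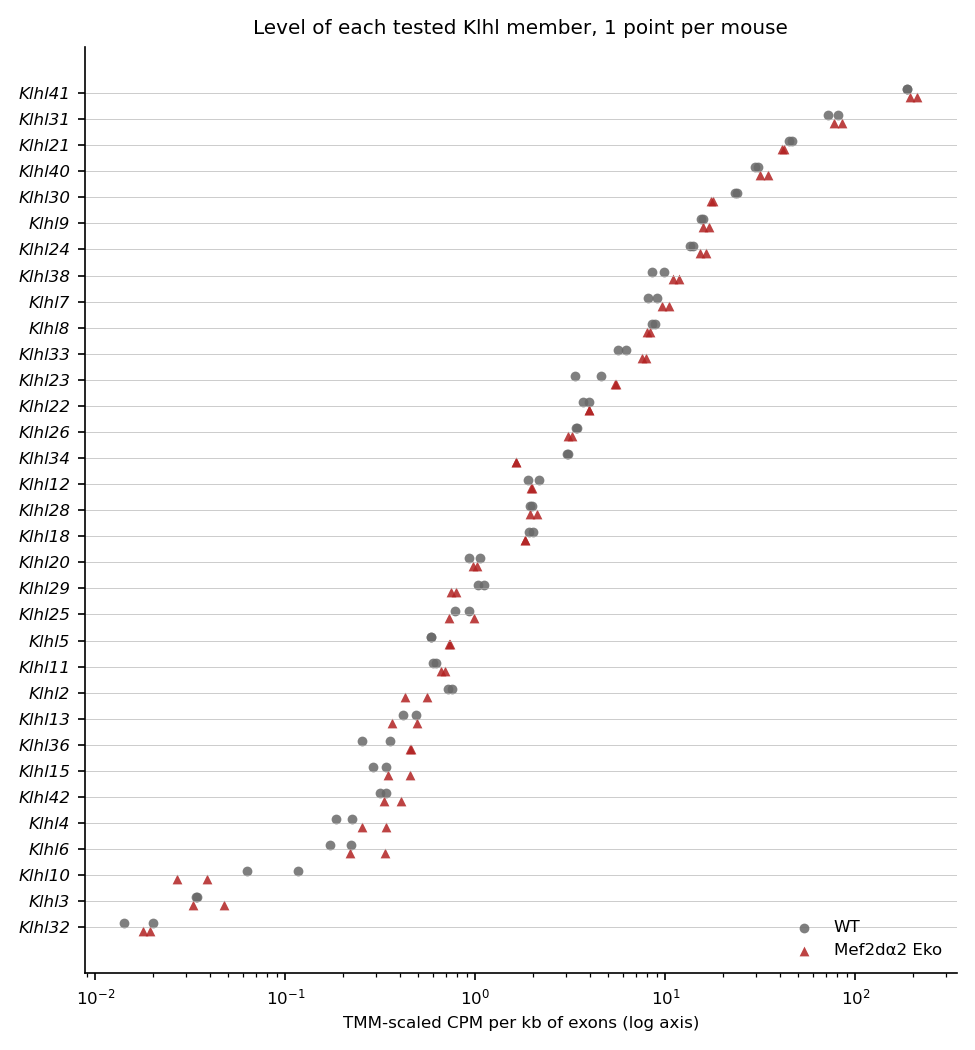
Level of the 33 tested members in TMM-scaled CPM per kb of exons on a log axis, with 1 point for each of 2 WT mice (circles) and 2 Eko mice (triangles). Levels run from 0.0142 CPM per kb for Klhl32 in a WT mouse to 212 CPM per kb for Klhl41 in an Eko mouse, and Klhl34, in the middle of the range, lies at 3.05 and 3.09 CPM per kb in WT and at 1.64 and 1.63 CPM per kb in Eko muscles.

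Between the genotypes, 1 of the 33 members passed the threshold of 0.05 on edgeR's quasi-likelihood test after Benjamini-Hochberg adjustment, Klhl34, which was lower in Eko quadriceps. Over all rows tested, 0.416% passed in either direction and 0.310% passed with a lower level in Eko muscles. At an unadjusted p below 0.05 there were 10 members (30.3%), 4 lower and 6 higher, against 11.6% of all rows. The Eko mice lay above the WT mice in 13 of the 33 members and below both in 9, against 20.8% and 23.0% of all rows. The median log2 fold change was 0.09 over the tested members and -0.01 over all rows, and the median size of the change regardless of sign was 0.18 and 0.14. Whether these shares differ from those of other genes was not tested. With DESeq2, 3 members passed, Klhl34, Klhl30 and Klhl33, against 1.97% of all rows. With 2 mice per genotype, the smallest two-sided p of an exact permutation test is 0.333, so all calls rest on models that share the estimate of the spread among genes.

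**Figure D2:**
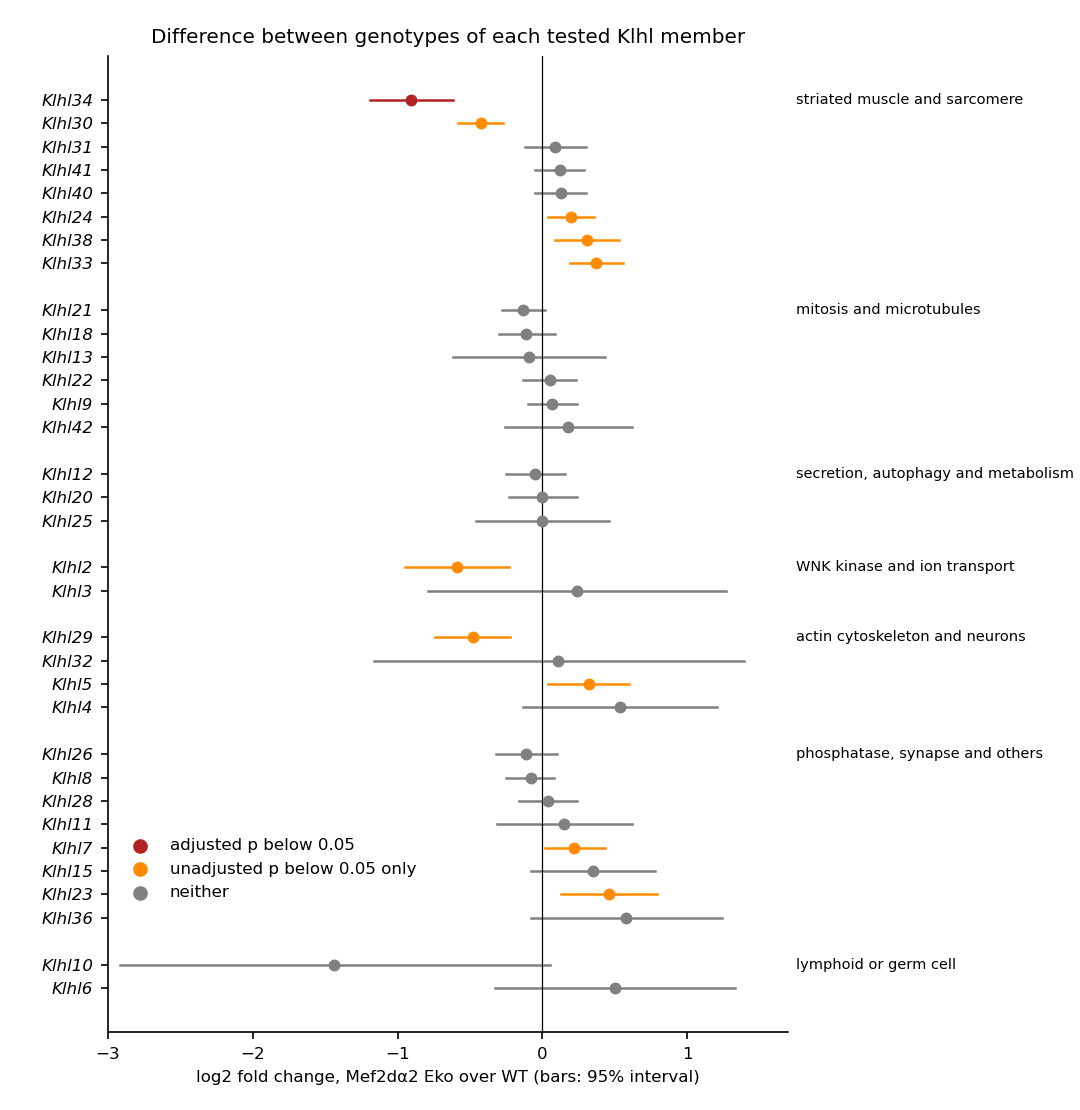
Log2 fold change of each tested member, Eko over WT, with its 95% interval from edgeR's quasi-likelihood fit, grouped by assigned role. Klhl34 is placed with striated muscle, although its function is little known. Klhl34 at -0.91 is the single member with an adjusted p below 0.05, the 9 other members with an unadjusted p below 0.05 lie from -0.59 to 0.46, and the widest interval is that of Klhl10.

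Klhl34 (ENSMUSG00000047485.6) lies on the plus strand of chromosome X, from 157818435 to 157820369 in GRCm38, and its function is little known. The 250 bases upstream of its transcript start are shown because it is the member that passed, and they run over chrX:157818185-157818434 on the plus strand. An E-box, the core site CANNTG of the myogenic regulatory factors, is in capitals and starts at -90 from the first transcribed base.
Klhl34: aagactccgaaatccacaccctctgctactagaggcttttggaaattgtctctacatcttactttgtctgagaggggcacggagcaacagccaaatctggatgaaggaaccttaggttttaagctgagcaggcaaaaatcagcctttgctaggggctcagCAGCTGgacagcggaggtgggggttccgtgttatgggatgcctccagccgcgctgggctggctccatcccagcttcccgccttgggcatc

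Klhl34 had 448 and 483 counts in WT muscles against 274 and 225 counts in Eko muscles. Its level was 5.90 and 5.97 CPM in WT muscles against 3.18 and 3.15 CPM in Eko muscles. The mice of each genotype were nearly level with each other and the genotypes did not overlap. The mean in Eko muscles was 53.3% of the WT mean, and the log2 fold change of Klhl34 was -0.91 with a standard error of 0.12 (adjusted p = 0.0466). Leaving out 1 mouse at a time kept it between -0.92 and -0.89, and without WT replicate 1 the adjusted p was 0.0616. It passed in 10 of the 13 other fits and scalings. The adjusted p was 0.0565 when genes needed at least 1 CPM in 2 libraries, and with limma-voom it came to the threshold without passing. After a correction for GC content, which is 58.7% in the exons of Klhl34, the log2 fold change was -0.83 and the adjusted p was 0.0593. The summed adipocyte markers were at 71.6 and 27.5 CPM in WT muscles against 22.4 and 10.2 CPM in Eko muscles. Cfd was the highest of them, at 48.5 and 16.9 CPM in WT muscles against 8.61 and 5.72 CPM in Eko muscles. Retn was also lower in both Eko mice, while Adipoq, Plin1 and Lep overlapped between the genotypes. The part of adipocytes in the difference of Klhl34 was not tested.

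Klhl30 (ENSMUSG00000026308.8, chromosome 1 from 91351016 to 91362416) is a further member grouped with striated muscle. Its level was 73.7 and 72.0 CPM in WT muscles against 55.4 and 53.3 CPM in Eko muscles. The gap between genotypes was wider than the difference between mice of a genotype. The log2 fold change of Klhl30 was -0.42 (standard error 0.07, 95% interval -0.58 to -0.27), and its adjusted p of 0.0721 missed the threshold in edgeR's quasi-likelihood test. In DESeq2 it passed, with an adjusted p of 0.000209. It passed in 6 of the 13 other fits, and leaving out 1 mouse at a time kept its log2 fold change between -0.44 and -0.40.

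Klhl33 and Klhl38 had values on the other side. Klhl33 (ENSMUSG00000090799.2, chromosome 14 from 50888582 to 50897507) was at 39.3 and 35.6 CPM in WT muscles against 49.7 and 47.2 CPM in Eko muscles. The Eko mice were the higher pair. The log2 fold change of Klhl33 was 0.37 (standard error 0.08, adjusted p = 0.161 in edgeR's quasi-likelihood test), and in DESeq2 its adjusted p was 0.0110. Klhl38, at 21.8 and 18.8 CPM in WT muscles against 24.3 and 26.0 CPM in Eko muscles, differed by 0.31 on the log2 scale, with an adjusted p of 0.292. The WT mice differed from each other by about as much as the lower Eko mouse did from the higher WT mouse. Klhl38 overlaps exons of Gm15943 on the other strand, and the strand setting used for counting was not given in the sources used here.

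The members named in nemaline myopathy and sarcomere upkeep did not pass the test. Klhl40 (ENSMUSG00000074001.3, chromosome 9 from 121777607 to 121783818) was at 74.5 and 76.5 CPM in WT muscles against 78.5 and 86.3 CPM in Eko muscles. Its log2 fold change was 0.13 with a 95% interval of -0.05 to 0.30 (adjusted p = 0.563). Klhl41 (ENSMUSG00000075307.3, chromosome 2 from 69670120 to 69684230) was at 471 and 474 CPM in WT muscles against 491 and 535 CPM in Eko muscles. The log2 fold change of Klhl41 was 0.12 with a 95% interval of -0.05 to 0.29 (adjusted p = 0.580). For both genes the Eko mice were above the WT mice, and the lower Eko mouse stood nearer to the WT mice than to the other Eko mouse. Klhl31 (ENSMUSG00000044938.8, chromosome 9 from 77636500 to 77660127) was at 526 and 466 CPM in WT muscles against 551 and 504 CPM in Eko muscles. The genotypes overlapped, and the log2 fold change was 0.09 with a 95% interval of -0.12 to 0.30 (adjusted p = 0.743). Klhl24, whose human counterpart is mutated in skin fragility with cardiomyopathy, was at 142 and 138 CPM in WT muscles against 155 and 166 CPM in Eko muscles (log2 fold change 0.20, adjusted p = 0.346). Klhl40 overlaps exons of Gm47108 on the other strand.

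**Figure D3:**
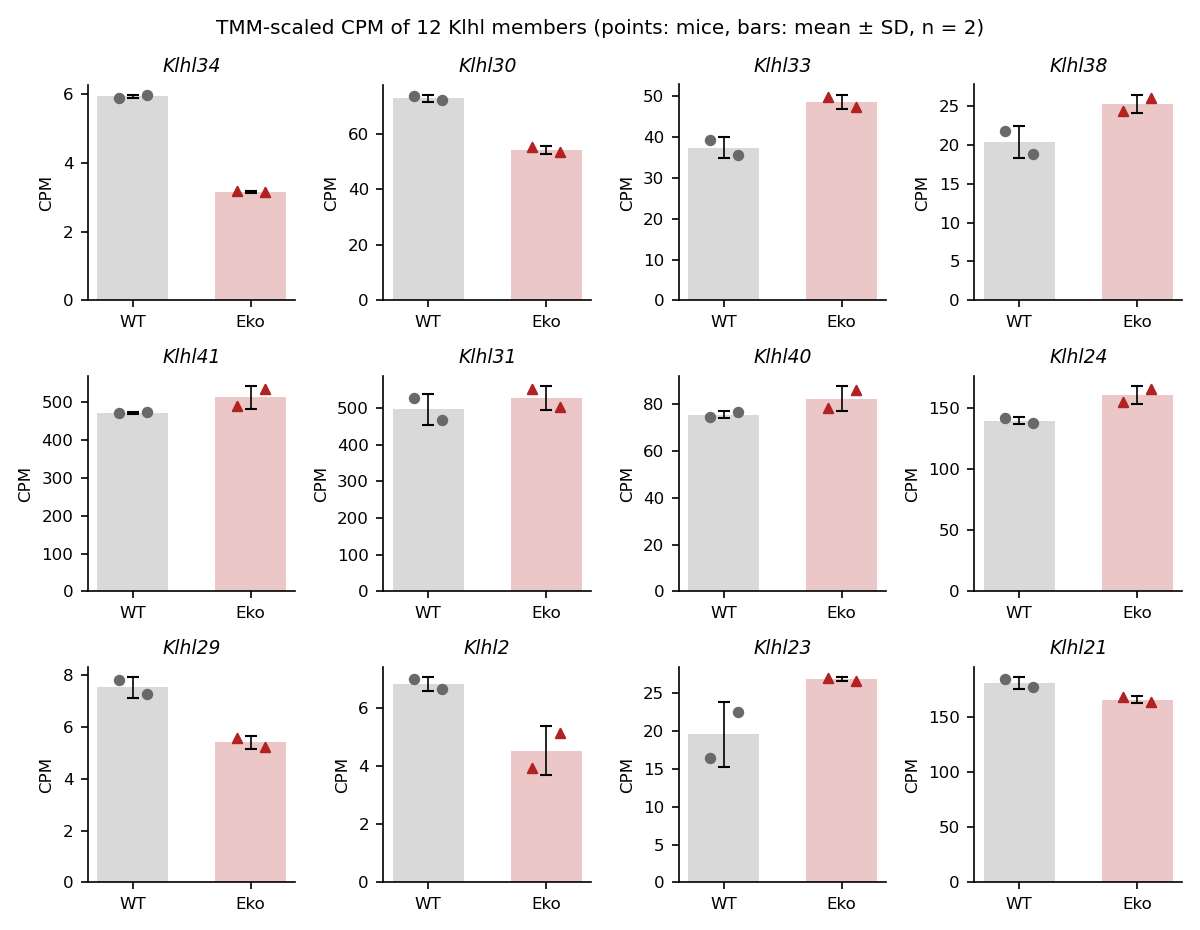
TMM-scaled CPM of 12 members, with 1 point per mouse and bars at the mean with the SD of 2 mice per genotype, on axes that start at 0. The points of Klhl34, Klhl30, Klhl29, Klhl2 and Klhl21 are lower in both Eko mice. Those of Klhl33, Klhl38, Klhl24, Klhl23, Klhl40 and Klhl41 are higher in both, and those of Klhl31 overlap.

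MEF2 factors bind an AT-rich site, and the consensus of this site was looked for in the 250 bases upstream of transcript starts in the RefSeq promoter table of GRCm38.p6. The table held 29 of the 34 members with 39 start sites. A match to the MEF2 consensus stood upstream of 2 members, Klhl41 and Klhl33, and so of 2 of the 39 start sites (5.13%), while 2.92% of the 32851 start sites of all genes had one. A further start site of Klhl33 in the table had no match. The consensus reads the same on both strands, so a single search covers both. The sequences of the pair are shown with the match in capitals. That of Klhl41 covers chr2:69669870-69670119 on the plus strand, with the match from -63 to -54. That of Klhl33 covers chr14:50897508-50897733 on the minus strand and leaves out 24 bases that GENCODE places in the transcript, with the match from -50 to -41 from the RefSeq start.
Klhl41: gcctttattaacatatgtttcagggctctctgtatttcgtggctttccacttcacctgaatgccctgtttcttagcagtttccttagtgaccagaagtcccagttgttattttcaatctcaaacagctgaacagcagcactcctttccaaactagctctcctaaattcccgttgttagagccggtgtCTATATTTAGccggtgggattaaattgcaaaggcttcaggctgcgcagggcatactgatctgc
Klhl33: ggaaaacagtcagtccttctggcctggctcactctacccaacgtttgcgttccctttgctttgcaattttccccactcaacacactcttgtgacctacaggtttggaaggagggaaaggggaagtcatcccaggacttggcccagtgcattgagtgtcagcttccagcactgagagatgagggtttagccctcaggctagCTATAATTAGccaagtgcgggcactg

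An E-box, CANNTG, was present upstream of 17 of the 29 members and in 59.0% of their 39 start sites, against 66.2% of all start sites. Klhl41 held 4 E-boxes in this window, Klhl40 held 3 and Klhl33 and Klhl34 held 1 each. Klhl34, the member that passed, had no match to the MEF2 consensus in these 250 bases. A match is a description of the letters and does not show that a factor binds there. Klhl30, Klhl38, Klhl24, Klhl8 and Klhl42 were not matched in the table.

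The 6 members tied to mitosis and microtubules had log2 fold changes between -0.13 and 0.18. None of the 6 passed the threshold in edgeR's test or in DESeq2 and 0 had an unadjusted p below 0.05, where the shares of all rows were 0.416%, 1.97% and 11.6%. Klhl21, which directs Aurora B kinase in dividing cells, was the most abundant of them. It was at 185 and 177 CPM in WT muscles against 168 and 164 CPM in Eko muscles. Eko mice were the lower pair, with a log2 fold change of -0.13 (95% interval -0.28 to 0.02, adjusted p = 0.500). Klhl9, a partner of Klhl21 in that task, was at 64.4 and 65.4 CPM in WT muscles against 65.5 and 70.7 CPM in Eko muscles (log2 fold change 0.07, adjusted p = 0.755). The log2 fold changes of Klhl13, Klhl18, Klhl22 and Klhl42 lay between -0.11 and 0.18. Klhl21 overlaps exons of Gm9768 and Klhl9 overlaps exons of Gm26566 on the other strand.

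Klhl12, Klhl20 and Klhl25, adaptors for coat proteins of secretion, autophagy kinases and lipid synthesis, had log2 fold changes nearest to 0 as a group. Klhl12 was at 21.7 and 24.7 CPM in WT muscles against 22.5 and 22.4 CPM in Eko muscles, and Klhl20 was at 13.7 and 11.8 CPM in WT muscles against 12.5 and 13.1 CPM in Eko muscles. The genotypes overlapped for all 3, with log2 fold changes from -0.05 to 0.00. The 95% interval of Klhl20 was -0.23 to 0.24.

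Klhl2 and Klhl3 target the WNK kinases that control ion transport. Klhl2 (ENSMUSG00000031605.8, chromosome 8 from 64739675 to 64850017) was at 6.98 and 6.63 CPM in WT muscles against 3.94 and 5.12 CPM in Eko muscles. Eko mice were below WT mice but differed from each other. Klhl2 differed by -0.59 on the log2 scale (standard error 0.15, adjusted p = 0.228), and it ran from -0.79 to -0.40 as single mice were left out. Klhl3 had between 17 and 30 counts per library, too few to show a difference of moderate size, with a 95% interval of -0.79 to 1.27 on the log2 scale.

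Among the members placed with the actin cytoskeleton and neurons, Klhl29 (ENSMUSG00000020627.10, chromosome 12 from 5077472 to 5375682) was at 7.81 and 7.25 CPM in WT muscles against 5.58 and 5.22 CPM in Eko muscles. The genotypes did not overlap, and Klhl29 differed by -0.48 on the log2 scale (standard error 0.11, adjusted p = 0.197). Klhl5 was at 4.10 and 4.13 CPM in WT muscles against 5.09 and 5.20 CPM in Eko muscles (log2 fold change 0.32, adjusted p = 0.372). Klhl4 had between 50 and 105 counts and Klhl32 between 9 and 13 counts, and neither had an unadjusted p below 0.05.

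Of the remaining members with other or little known roles, Klhl23 (ENSMUSG00000042155.3, chromosome 2 from 69821944 to 69836651) had the smallest p. It was at 16.5 and 22.6 CPM in WT muscles against 27.1 and 26.7 CPM in Eko muscles. The Eko mice were above both WT mice, which differed from each other by more than the higher of them differed from either Eko mouse. The log2 fold change of Klhl23 was 0.46 (standard error 0.14, adjusted p = 0.297), and it moved from 0.25 to 0.72 as mice were left out. Without WT replicate 2, the higher of the WT mice, Klhl23 passed. Klhl7, whose human counterpart is mutated in retinitis pigmentosa, was at 32.2 and 35.9 CPM in WT muscles against 37.9 and 41.7 CPM in Eko muscles (log2 fold change 0.22, adjusted p = 0.400). Klhl15, which targets a subunit of protein phosphatase 2A, was at 2.82 and 3.30 CPM in WT muscles against 4.42 and 3.37 CPM in Eko muscles (log2 fold change 0.35, adjusted p = 0.514). Klhl8, Klhl11, Klhl26, Klhl28 and Klhl36 had log2 fold changes between -0.11 and 0.58, and the widest of these, Klhl36, rested on 45 to 92 counts per library.

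The members known from lymphoid or germ cells had few counts and, among the tested members, the largest ratios between mice of a genotype. Klhl10, an adaptor of maturing sperm, had 19 and 11 counts in WT muscles against 5 and 6 counts in Eko muscles. Eko mice were lower, but the 95% interval of the log2 fold change ran from -2.92 to 0.05 around -1.44 (adjusted p = 0.449). Klhl6, a gene of B cells, had 44 and 36 counts in WT muscles against 75 and 41 counts in Eko muscles, and the genotypes overlapped (log2 fold change 0.50, adjusted p = 0.633).

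**Figure D4:**
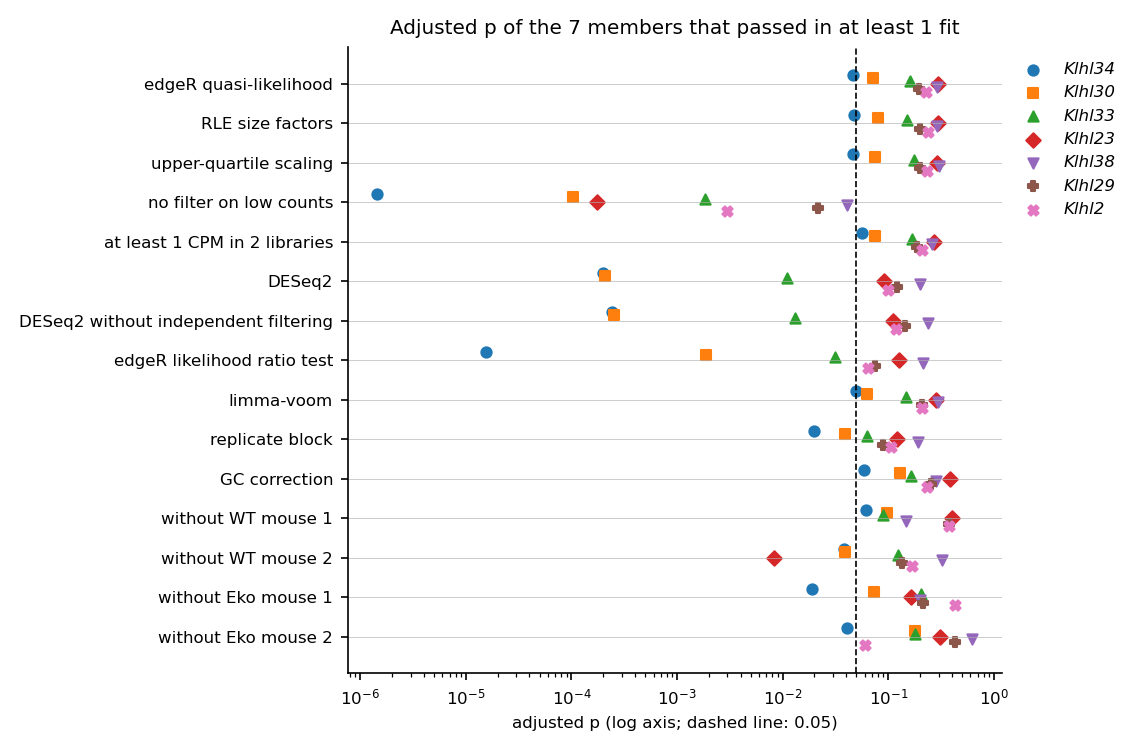
Adjusted p, on a log axis, of the 7 members that passed 0.05 (dashed line) in at least 1 fit, for edgeR's quasi-likelihood test and each alternative. Klhl34 lies left of the line in 10 of 13 alternatives other than the GC correction, Klhl30 in 6, Klhl33 in 4 and Klhl23 in 2, and Klhl38, Klhl29 and Klhl2 pass without the filter on low counts.

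The scaffold and the RING subunit of the ligase did not differ beyond the spread between mice. Cul3, the Cullin-3 scaffold, was at 374 and 368 CPM in WT muscles against 357 and 382 CPM in Eko muscles (log2 fold change -0.01, 95% interval -0.17 to 0.16). Rbx1, its RING subunit, was at 39.2 and 46.9 CPM in WT muscles against 43.0 and 41.9 CPM in Eko muscles (log2 fold change -0.02, 95% interval -0.25 to 0.21). The genotypes overlapped for both genes. Among the 15 genes of the Cullin-3 core and of neddylation, the step that switches cullins on, 0 passed in edgeR's test and in DESeq2, and 2 (13.3%) had an unadjusted p below 0.05, near the 11.6% of all rows. These were Glmn, which caps Rbx1 (log2 fold change 0.40, adjusted p = 0.374), and Dcun1d1, which promotes neddylation of cullins (log2 fold change 0.17, adjusted p = 0.384). The median log2 fold change of this list was 0.02. Of the 10 subunits of the COP9 signalosome, which takes NEDD8 off cullins, 0 passed in either tool and 0 had an unadjusted p below 0.05. Gps1 had the smallest p among them, at -0.13 on the log2 scale (adjusted p = 0.532).

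BTB-kelch and kelch genes with other names held no call in edgeR's test. Keap1, the adaptor that holds the antioxidant factor NRF2 in check, was at 72.8 and 76.2 CPM in WT muscles against 70.4 and 78.7 CPM in Eko muscles, and its genotypes overlapped. Of the 17 tested genes of this list, 0 passed in edgeR's test, 3 had an unadjusted p below 0.05, all with positive log2 fold changes, and 2, Klhdc1 and Kbtbd12, passed in DESeq2, against 11.6% and 1.97% of all rows. Klhdc1, a kelch adaptor of another cullin, had the smallest p. It was at 21.7 and 23.0 CPM in WT muscles against 28.6 and 29.7 CPM in Eko muscles (log2 fold change 0.39, adjusted p = 0.125). Median log2 fold change over the list was 0.09.

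Partners and substrates of Klhl proteins included the thin filament proteins. Lmod3, which encodes leiomodin-3, the nucleator of actin filaments that Klhl40 stabilises, was at 142 and 148 CPM in WT muscles against 111 and 108 CPM in Eko muscles. Lmod3 was lower in both Eko mice, with a log2 fold change of -0.40 (standard error 0.07, 95% interval -0.56 to -0.25), but the adjusted p of 0.0833 missed the threshold in edgeR's quasi-likelihood test. In DESeq2 Lmod3 passed, with an adjusted p of 0.000198. Neb, which encodes the thin filament ruler nebulin, was at 6953 and 6752 CPM in WT muscles against 7589 and 8615 CPM in Eko muscles. The log2 fold change of Neb was 0.24 (95% interval 0.02 to 0.46, adjusted p = 0.400), so Neb and Lmod3 had opposite signs beside Klhl40 and Klhl41, neither of which passed. Nrap, which Klhl41 binds, overlapped between genotypes, at 1130.0 and 1036 CPM in WT muscles against 1001 and 1056 CPM in Eko muscles. Flnc, a target of Klhl31, was at 661 and 583 CPM in WT muscles against 575 CPM in both Eko mice (log2 fold change -0.11, adjusted p = 0.650).

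Of the 24 tested partners and substrates, 0 passed in edgeR's test, 5 had an unadjusted p below 0.05 and 2, Lmod3 and Dapk1, passed in DESeq2, against 11.6% and 1.97% of all rows. The median log2 fold change of the list was -0.10, and 19 of the 24 values were negative, against 8262 of the 16120 rows. The list held 3 targets of Klhl20. Dapk1, a kinase of cell death and autophagy, was at 3.69 and 3.59 CPM in WT muscles against 1.77 and 2.35 CPM in Eko muscles (log2 fold change -0.82, adjusted p = 0.180). Ulk1, the kinase that starts autophagy, was at 107 and 104 CPM in WT muscles against 88.2 and 88.0 CPM in Eko muscles (log2 fold change -0.26, adjusted p = 0.224). Pml, the third, overlapped between the genotypes (log2 fold change -0.07, adjusted p = 0.876), as did Klhl20 itself. Ikbkb, a kinase targeted by Klhl21, was at -0.27 on the log2 scale (adjusted p = 0.338).

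**Figure D5:**
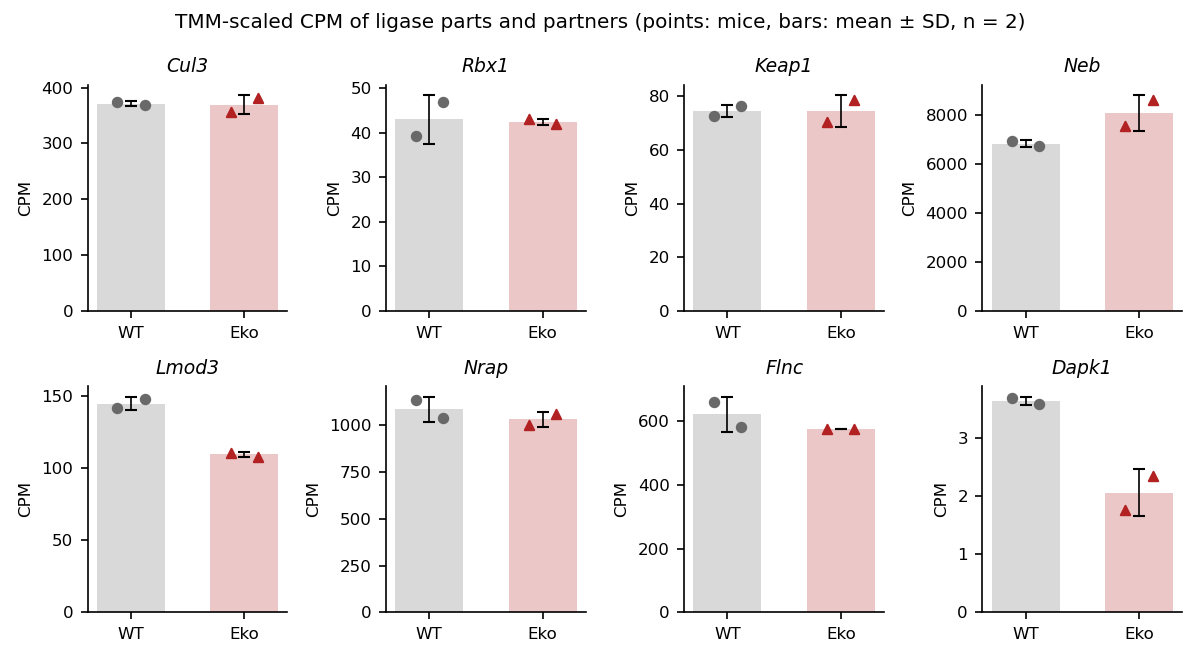
TMM-scaled CPM of Cullin-3 ligase genes, Keap1 and Klhl partners, with 1 point per mouse and bars at the mean with the SD of 2 mice per genotype, on axes that start at 0. Lmod3, Dapk1 and Flnc are lower in both Eko mice and Neb is higher in both, while Cul3, Rbx1, Keap1 and Nrap overlap.

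Markers of other cells and of fibre types were summed in each library, and no marker passed after adjustment in edgeR's test. All 5 macrophage markers had negative log2 fold changes, with summed levels of 24.4 and 19.3 CPM in WT muscles against 19.1 and 13.9 CPM in Eko muscles. Of the 5 adipocyte markers, whose sums are given with Klhl34, 4 were negative. All 5 Schwann cell markers were positive, with sums of 23.6 and 26.1 CPM in WT muscles against 29.2 and 35.5 CPM in Eko muscles, as were all 5 smooth muscle and pericyte markers, with sums of 299 and 285 CPM and of 315 and 352 CPM. No marker of these lists was at 0 in all libraries. At an unadjusted p below 0.05 there were 3 macrophage, 3 adipocyte, 2 Schwann cell and 3 smooth muscle markers. There were also 2 fibroblast and 2 myofibre markers below 0.05, against 11.6% of all rows. DESeq2 called 2 of the 8 myofibre markers and 1 of the 5 fibroblast markers after adjustment, against 1.97% of all rows. Of the 5 fibroblast markers 4 were negative, among them Col3a1 at -0.40 and Pdgfra at -0.26 on the log2 scale. All 4 satellite cell markers were positive too, with sums of 24.3 and 22.6 CPM in WT muscles against 24.9 and 25.8 CPM in Eko muscles. The summed markers of endothelium, fibroblasts and lymphocytes overlapped between the genotypes. Myh2, the myosin of type IIa fibres, was at 1576 and 1709 CPM in WT muscles against 1264 and 1041 CPM in Eko muscles (log2 fold change -0.51, adjusted p = 0.161). Myh1, the myosin of type IIx fibres, was at -0.44 on the log2 scale (adjusted p = 0.261). The 8 myofibre markers were split, with 4 negative and 4 positive log2 fold changes. Myh4, the myosin of type IIb fibres, was higher in both Eko mice, at 0.07 on the log2 scale (adjusted p = 0.825). Myh7, the myosin of type I fibres, overlapped, at 113 and 339 CPM in WT muscles against 237 and 145 CPM in Eko muscles. The part of these cells and fibre types in the values of Klhl34, Klhl30, Klhl2 and Klhl29 was not tested, and in whole muscle fewer cells of a type cannot be told apart from less RNA per cell.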

How the data were processed

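PolyA-selected quadriceps RNA of 4 mice was sequenced in stranded libraries. Per the labels and the study's methods, the authors aligned reads to mm10 with STAR 2.6.1a, as the submitters' processing notes name it, and deposited RSEM expected counts per gene, with no normalization and with the Ensembl annotation of GRCm38. All deposited expected counts were whole numbers, so rounding changed none.

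In R 4.3.3, edgeR 4.0.16 (TMM, filterByExpr, glmQLFit and glmQLFTest) compared genotypes over all 16120 rows that passed the filter, with Benjamini-Hochberg adjustment at 0.05 and a prior count of 0.125 for log2 fold changes. Alternatives used DESeq2 1.42.0 (the authors' tool), limma 3.58.1, other scalings and filters, a replicate block and each mouse left out. The GC correction was added after the data were seen. Replicates are separate mice. Lengths, positions and GC content came from GENCODE M21 (GRCm38), upstream sequences from RefSeq.

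The members, gene lists and tests were chosen with earlier results of these data known. Given in full were Klhl31, Klhl40, Klhl41, members with an adjusted p below 0.05 in any planned fit, the 6 smallest p, the 6 highest levels per kb and the members with the widest spread between mice. Of the lists, Cul3, Rbx1, Keap1, Neb, Lmod3, Nrap, Flnc and the genes with the smallest p were named. Dcun1d1, Kbtbd12, Dapk1, Ulk1, Pml, Ikbkb and Irs1 were named after their values were seen. So were the markers Col3a1, Pdgfra, Myh1, Myh2, Myh4, Myh7, Cfd, Retn, Adipoq, Plin1 and Lep.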

Additional observations from a re-analysis of the deposited data

How the results depend on the processing

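The number of calls differed between settings. Of the 33 tested Klhl members, 1 passed the 0.05 threshold after adjustment with edgeR's quasi-likelihood test, 7 without the filter on low counts (Klhl2, Klhl23, Klhl29, Klhl30, Klhl33, Klhl34 and Klhl38), 3 with DESeq2, with DESeq2 without independent filtering and with edgeR's likelihood ratio test (Klhl30, Klhl33 and Klhl34 in each), and 0 with limma-voom, after the GC correction and with a minimum of 1 CPM in 2 libraries. Leaving out 1 mouse at a time, the number ran from 0 to 3. It was 0 without WT replicate 1 and 3 without WT replicate 2 (Klhl23, Klhl30 and Klhl34). Over all rows, 67 passed in the quasi-likelihood test, 799 of 24621 without the filter, 23 of 12241 with a minimum of 1 CPM in 2 libraries, 318 and 309 with DESeq2 with and without independent filtering, 312 with the likelihood ratio test, 44 after the GC correction, and from 99 to 299 with a mouse left out. Of the 66 tested genes of the 4 pathway lists, 0 passed in the quasi-likelihood test, 5 without the filter (Dapk1, Irs1, Kbtbd12, Klhdc1 and Lmod3, of which Irs1 and Kbtbd12 were named after their values were seen), 4 and 3 with DESeq2 with and without independent filtering, 3 with the likelihood ratio test and 0 to 1 with a mouse left out. The number of rows tested also differed between some settings, and the cause of the differences in calls was not tested. The study calls the sequenced WT and Eko mice littermates, but the sources used here do not pair them by replicate number. The log2 difference between replicates 1 and 2 was taken in each genotype. Over the 16120 rows tested, these differences had a correlation of 0.162 between WT and Eko muscles. With the replicate number as a block, 2 members (Klhl34 and Klhl30), 186 rows and 1 list gene (Lmod3) passed. The median log2 fold change of the tested members ran from 0.05 to 0.12 over all settings. No log2 fold change of the members given in full turned its sign. At this depth, members under 100 counts in every library, 5 of those tested, could show large changes alone.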
